A study of Mus musculus with 2 samples.

Results

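The 10 genes described here, known for satellite cells and for the Notch pathway, were measured in mouse skeletal muscle: Pax7, Cdh15, Megf10, Calcr, Sdc4, Notch1, Notch3, Hes1, Hey1 and Heyl. They were chosen by name, and all 10 have a row among the 44787 gene rows of the deposited table. The study sequenced RNA from hindlimb muscle of C57BL/6 mice at postnatal day 30 (P30), with 1 library labelled WT and 1 labelled SRSF1-MKO. The SRSF1 protein belongs to the serine/arginine-rich family and helps to choose splice sites; the labels do not spell out MKO, name no Cre driver or allele, and do not say how many animals a library holds. Both libraries are whole muscle, so fewer cells of a type and less RNA per cell cannot be told apart. With 1 library per group there is no replicate check and no test between genotypes, and every interval below is a 95% interval that covers the counting of reads only.

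Satellite cells are the stem cells of skeletal muscle. They lie between the fibre and its basal lamina, are marked by the transcription factor Pax7, and stay quiescent until injury or growth calls on them. Notch is a receptor that a ligand on a neighbouring cell activates: proteases then free its intracellular part, which joins RBPJ in the nucleus and turns on repressors of the Hes and Hey families. In mouse muscle this signal is known to keep satellite cells quiescent, and it is also used by endothelial cells, pericytes and vascular smooth muscle, so that several of the genes below are read out from more than 1 cell type.

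The 2 description lines that the submitters gave each sample name opposite columns; columns were assigned by the genotype in their names, so the direction of every difference rests on those names. Srsf1 itself stood at 13.7 FPKM in WT against 6.70 in SRSF1-MKO (FPKM, reads per kilobase of transcript and per 1000000 mapped reads). Its row lies on an alternate scaffold of the assembly, so its level may be partial. The Y-linked genes Ddx3y and Eif2s3y stood at 11.7 and 26.5 FPKM in WT and were listed at 0 in SRSF1-MKO, whereas Xist was at 0.00482 and 8.15 FPKM, so sex and genotype cannot be told apart. The library totals inferred from the FPKM values were 23146640 reads for WT and 21350284 for SRSF1-MKO. Muscle fibre markers were abundant in both, and all 10 of that list were above 0. Genes were compared as the difference in log2(FPKM + 1), SRSF1-MKO minus WT, over the 10478 rows whose mean FPKM was at least 1; the median difference over those rows was 0.21, and 0.32 over rows whose mean FPKM was at least 5, so a gene at 0 lies below the typical row.

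The 10 genes spanned a wide range of levels, and the upper and lower ends of the order were alike in both libraries. Per kilobase, the WT order ran from Sdc4 at 13.7 FPKM through Hes1, Cdh15, Notch3, Heyl, Hey1, Notch1, Megf10 and Pax7 to Calcr at 0.180 FPKM. In SRSF1-MKO the first 3 and the last were the same genes, while Hey1 stood above Notch3 and Heyl, and Pax7 above Megf10. Neighbours in the WT order whose counting intervals overlapped were Hes1 with Cdh15, Heyl with Hey1, Hey1 with Notch1, and Megf10 with Pax7. In SRSF1-MKO the levels from Hey1 down to Notch1 overlapped step by step, as did those of Pax7 and Megf10.

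**Figure D1:**
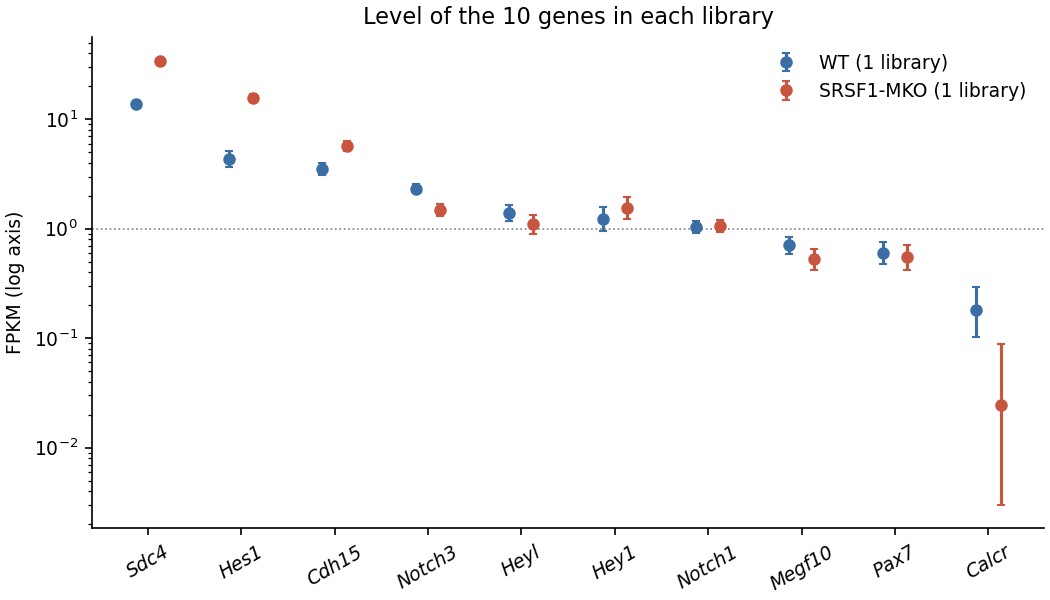
FPKM of each gene (log axis) in the WT library (blue) and the SRSF1-MKO library (red), with exact 95% Poisson counting intervals as bars and a dotted line at 1 FPKM. Sdc4, Hes1 and Cdh15 stand highest and are higher in SRSF1-MKO, and Pax7, Megf10 and Calcr lie under 1 FPKM in both libraries.

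Of the 10 genes, 7 reached a mean of 1 FPKM and 3 (Pax7, Megf10 and Calcr) did not. The limit for calling a gene higher or lower was 1.5-fold in FPKM + 1, a log2 difference of 0.585. At that size 2 of the 7 were higher, Hes1 and Sdc4, and 0 were lower, beside 23.7% of all rows compared that were higher and 8.13% that were lower. The count of 2, or 28.6% of the 7, is near the background share and is no result about the set. Cdh15, at 0.58, lay just inside the limit on the higher side, and Notch3, at -0.43, was the furthest on the lower side. With a pseudocount of 0.1 FPKM in place of 1, Cdh15 passed the limit at 0.69 and Notch3 at -0.62. With the median of rows whose mean FPKM was at least 5 set to 0, Hes1 and Sdc4 were still the 2 higher genes (background 11.4%) and Notch3 became lower at -0.75 (background 18.1%).

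**Figure D2:**
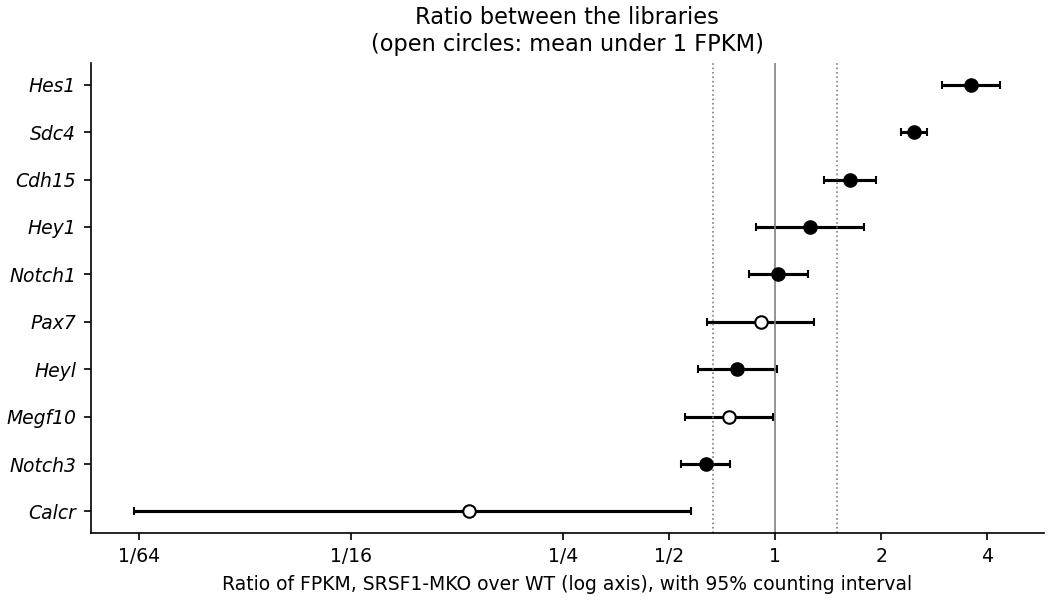
Ratio of FPKM, SRSF1-MKO over WT (log axis), for each gene with its exact binomial 95% counting interval; open circles are genes with a mean under 1 FPKM, the solid line is a ratio of 1 and the dotted lines are 1.5-fold in either direction. The intervals of Hes1 and Sdc4 lie to the right of all others, and that of Calcr, from 2 reads in SRSF1-MKO, is the widest.

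The genes did not share 1 direction. SRSF1-MKO held the higher FPKM for 5 of them and the lower FPKM for the other 5. Of the 7 whose mean FPKM was at least 1, 2 had the lower FPKM, beside 34.1% of all rows compared. The counting interval of the ratio left out 1 for 6 of the 10 (Hes1, Sdc4, Cdh15, Notch3, Megf10 and Calcr). The share of all rows whose interval left out 1 was not computed, so that count is no result about the set. The intervals of Hes1 and Sdc4 overlapped with that of no other gene of the set, nor with each other. The difference of Hes1 was larger than that of 97.0% of all rows compared and that of Sdc4 larger than that of 94.3%, whereas Hey1 lay near the middle, above 49.0% of rows.

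**Figure D3:**
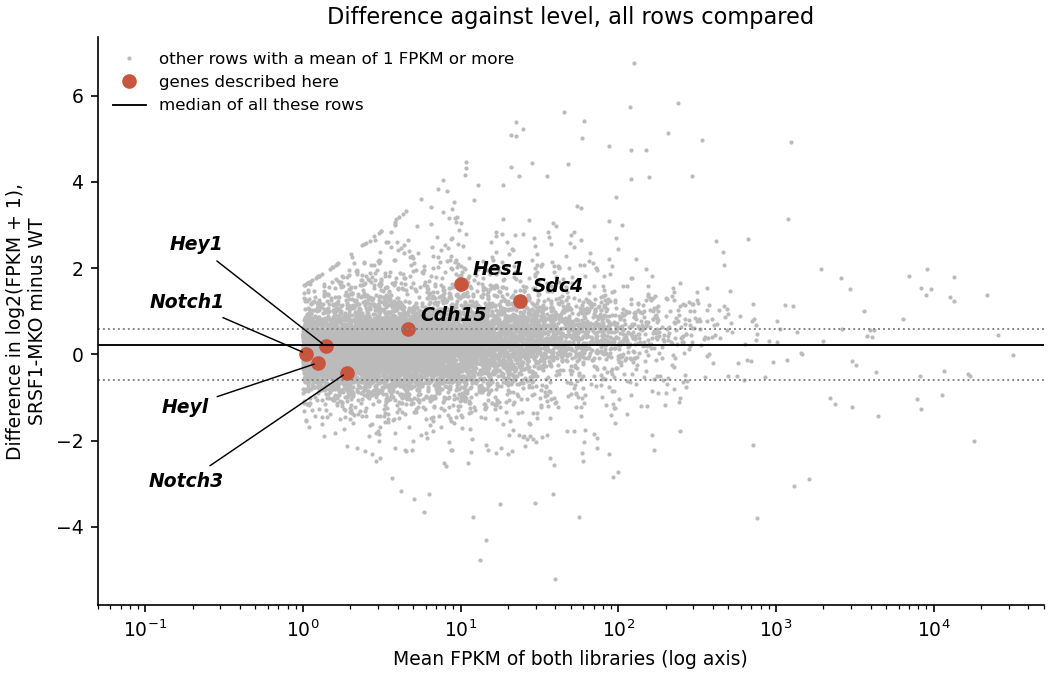
Difference in log2(FPKM + 1), SRSF1-MKO minus WT, against the mean FPKM of both libraries (log axis) for the 10478 rows compared (grey) and the 7 described genes whose mean FPKM was at least 1 (red); the solid line is the median of all rows, 0.21, and the dotted lines are 1.5-fold. Hes1 and Sdc4 lie above the upper dotted line and the other 5 lie between the lines, inside the bulk of the rows.

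Pax7, the paired-box transcription factor that defines the satellite cell (GRCm38 chromosome 4, 139737062 to 139833528, minus strand), was at 0.604 FPKM in WT against 0.550 in SRSF1-MKO. That is a ratio of 0.911 with a counting interval of 0.641 to 1.29, so on the deposited scale a difference was not detectable at this depth. The values rest on 75 and 63 reads for a transcript of 5361 bases; if the authors' length was 3574 bases they rest on 50 and 42, and the interval widens to 0.590 to 1.40. Megf10, a receptor with EGF-like repeats that in mouse satellite cells is known to favour proliferation (chromosome 18, 57133090 to 57297467), was at 0.707 and 0.524 FPKM. Its 123 and 84 reads gave a ratio of 0.740 (0.554 to 0.985), with an upper bound close to 1. Calcr, the calcitonin receptor that marks quiescent satellite cells in adult mouse muscle (chromosome 6, 3685680 to 3764714), was at 0.180 FPKM in WT against 0.0245 in SRSF1-MKO. That is 7.38-fold lower, from 16 reads against 2, and the counting interval of this fold ran from 1.73 to 66.2. On the log2(FPKM + 1) scale these 3 genes differed by -0.05, -0.16 and -0.20, a scale that hides changes at so low a level. With the median of rows whose mean FPKM was at least 5 set to 0, they differed by -0.37, -0.49 and -0.53. All 3 had the lower FPKM in SRSF1-MKO, but the ratio interval of Pax7 included 1. The ratio interval of Megf10 overlapped with those of both Pax7 and Calcr. The quotient of Megf10 to Pax7 within a library, which does not depend on the scaling between libraries, was 1.17 in WT and 0.951 in SRSF1-MKO, and the interval of its change (0.514 to 1.29) included 1.

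Both adhesion genes of the set were higher in SRSF1-MKO in FPKM, and Sdc4 passed the 1.5-fold limit. Sdc4 encodes syndecan-4, a heparan sulphate proteoglycan found on satellite cells and on many other cells (chromosome 2, 164424247 to 164443887, minus strand). It stood at 13.7 FPKM in WT against 33.9 in SRSF1-MKO, from 780 and 1780 reads. Sdc4 was thus 2.47-fold higher (2.27 to 2.69), a difference of 1.25 on the log2(FPKM + 1) scale. Cdh15 encodes M-cadherin, which joins satellite cells and myoblasts to each other and to the fibre (chromosome 8, 122847966 to 122867397, plus strand). It was at 3.53 and 5.75 FPKM, from 232 and 349 reads, a ratio of 1.63 (1.38 to 1.93). Set against Pax7 within each library, Sdc4 was 22.7 times as abundant in WT and 61.6 times in SRSF1-MKO, a change of 2.72 (1.89 to 3.90). For Cdh15 the same quotients were 5.83 and 10.4, a change of 1.79 (1.21 to 2.65). These intervals take 75 and 63 reads for Pax7. With 50 and 42 they ran from 1.75 to 4.23 for Sdc4 and from 1.12 to 2.86 for Cdh15. With 25 and 21, the smallest counts the values allow, they ran from 1.45 to 5.14 for Sdc4 and from 0.937 to 3.45 for Cdh15, which includes 1.

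Promoters of Sdc4, Cdh15 and Notch3 are shown because these are the 3 genes with a listed promoter whose ratio intervals left out 1 and whose mean FPKM was at least 1. Each window runs from 250 bases before the start of the gene to 50 bases after it (RefSeq, GRCm38.p6), 5′ to 3′ on the strand of the gene; capitals mark an E-box. The RefSeq start used here lies inside the interval printed above for Sdc4 and for Cdh15, so both windows fall within those intervals.
Sdc4 promoter: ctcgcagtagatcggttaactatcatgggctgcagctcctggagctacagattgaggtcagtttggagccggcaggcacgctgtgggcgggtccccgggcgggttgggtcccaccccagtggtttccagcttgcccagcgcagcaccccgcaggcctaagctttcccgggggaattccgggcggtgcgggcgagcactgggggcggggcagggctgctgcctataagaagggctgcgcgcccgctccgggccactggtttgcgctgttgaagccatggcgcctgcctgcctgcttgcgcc
Cdh15 promoter: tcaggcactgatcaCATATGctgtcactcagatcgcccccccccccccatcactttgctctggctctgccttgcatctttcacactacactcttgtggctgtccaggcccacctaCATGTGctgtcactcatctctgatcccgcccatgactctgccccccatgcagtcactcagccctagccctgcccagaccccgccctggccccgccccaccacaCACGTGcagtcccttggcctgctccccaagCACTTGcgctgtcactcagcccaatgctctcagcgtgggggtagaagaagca
Notch3 promoter: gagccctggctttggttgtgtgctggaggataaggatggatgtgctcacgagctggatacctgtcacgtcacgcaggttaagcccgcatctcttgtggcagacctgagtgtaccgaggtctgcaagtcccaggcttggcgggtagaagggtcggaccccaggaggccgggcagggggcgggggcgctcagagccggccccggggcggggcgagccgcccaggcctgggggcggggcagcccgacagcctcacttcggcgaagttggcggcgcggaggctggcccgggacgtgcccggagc
These windows are chr2:164443139-164443438 (minus strand), chr8:122848124-122848423 (plus strand) and chr17:32166841-32167140 (minus strand). The E-box, the site of MyoD-family and other basic helix-loop-helix factors, was searched as CANNTG, whose CAGCTG form is a subset of it, and the core of the RBPJ site as TGGGAA on both strands. Cdh15 held 4 E-boxes, beginning 236, 135, 32 and 2 bases before the start, and 0 of the CAGCTG form; Sdc4 and Notch3 held 0. At least 1 E-box stood in 72.3% of all 32851 promoters of this table, and 4 or more in 6.49%. The TGGGAA core was in none of the 3 windows and in 25.6% of all promoters. In all, 6 of the 10 genes were matched to the promoter table (Notch1, Sdc4, Pax7, Calcr, Cdh15 and Notch3), and Megf10, Hes1, Hey1 and Heyl were not. A match of letters is a description of the sequence, and its absence from a window says nothing of the factor.

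Other satellite cell genes split in both directions. Of 36 such genes on the list, 29 reached a mean of 1 FPKM; 6 were higher, 6 lower and 17 within 1.5-fold, with a median difference of -0.03 beside 0.21 over all rows. That is 20.7% higher beside 23.7% of all rows and 20.7% lower beside 8.13%. With the median set to 0, 5 were higher and 11 lower (background 11.4% and 18.1%). The list and its parts were chosen with earlier results of these data known.

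Among 12 surface genes, 4 were higher (33.3%, background 23.7%) and 2 lower (16.7%, background 8.13%). Tnfrsf12a, the receptor of the cytokine TWEAK, was at 9.36 FPKM in WT against 107 in SRSF1-MKO, 11.5-fold higher (9.94 to 13.3). Ncam1, a neural adhesion molecule that satellite cells and denervated fibres carry, was at 1.56 and 6.44 FPKM, 4.14-fold higher (3.62 to 4.75). The integrin subunits Itga7 (7.16 and 20.6 FPKM) and Itgb1 (44.0 and 74.5 FPKM), which bind laminin together and are also made by the fibre, were the other higher genes. The lower ones were Cd34, a sialomucin of satellite, endothelial and stromal cells, at 12.4 and 7.90 FPKM, and Cav1, a coat protein of caveolae, at 28.3 and 17.2 FPKM. Cd82, a tetraspanin, was the most abundant within the limits at 5.36 and 6.37 FPKM. The 4 higher genes are found on fibres or other cells as well as on satellite cells, and the 2 lower ones are strongly expressed in endothelium. The part of any cell type in these differences was not tested.

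Among 9 measured genes linked to quiescence, 0 were higher (background 23.7%) and 2 were lower (22.2%, background 8.13%). Cdkn1c, an imprinted inhibitor of cyclin-dependent kinases, was at 74.5 and 37.2 FPKM, and Col5a3, a chain of collagen V, at 9.20 and 5.67 FPKM. Dag1, the dystroglycan gene, was the most abundant within the limits, at 27.2 and 26.5 FPKM. Pax3, the paralogue of Pax7, and Chrdl2 were under the filter, at 0.201 and 0.0128 FPKM and at 0.564 and 0.186 FPKM.

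Among 8 measured genes of activation, division and fusion, 2 were higher and 2 lower, 25.0% each, beside 23.7% and 8.13% of all rows. Myog, the transcription factor of differentiating myoblasts, was at 8.87 FPKM in WT against 64.1 in SRSF1-MKO, 7.22-fold higher (6.40 to 8.17). Mymk, the fusion protein myomaker, was at 2.72 and 6.11 FPKM. The second fusion gene, Mymx, was under the filter, listed at 0 in WT and at 1.06 FPKM in SRSF1-MKO. Mki67, a protein of dividing cells, was at 4.23 and 1.92 FPKM, and Ccnd1, cyclin D1, at 7.08 and 3.76 FPKM. Pcna, the sliding clamp of DNA replication, was the most abundant within the limits at 12.0 and 13.6 FPKM. Myod1, which stands before Myog in myogenesis, was at 6.55 and 5.18 FPKM.

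**Figure D4:**
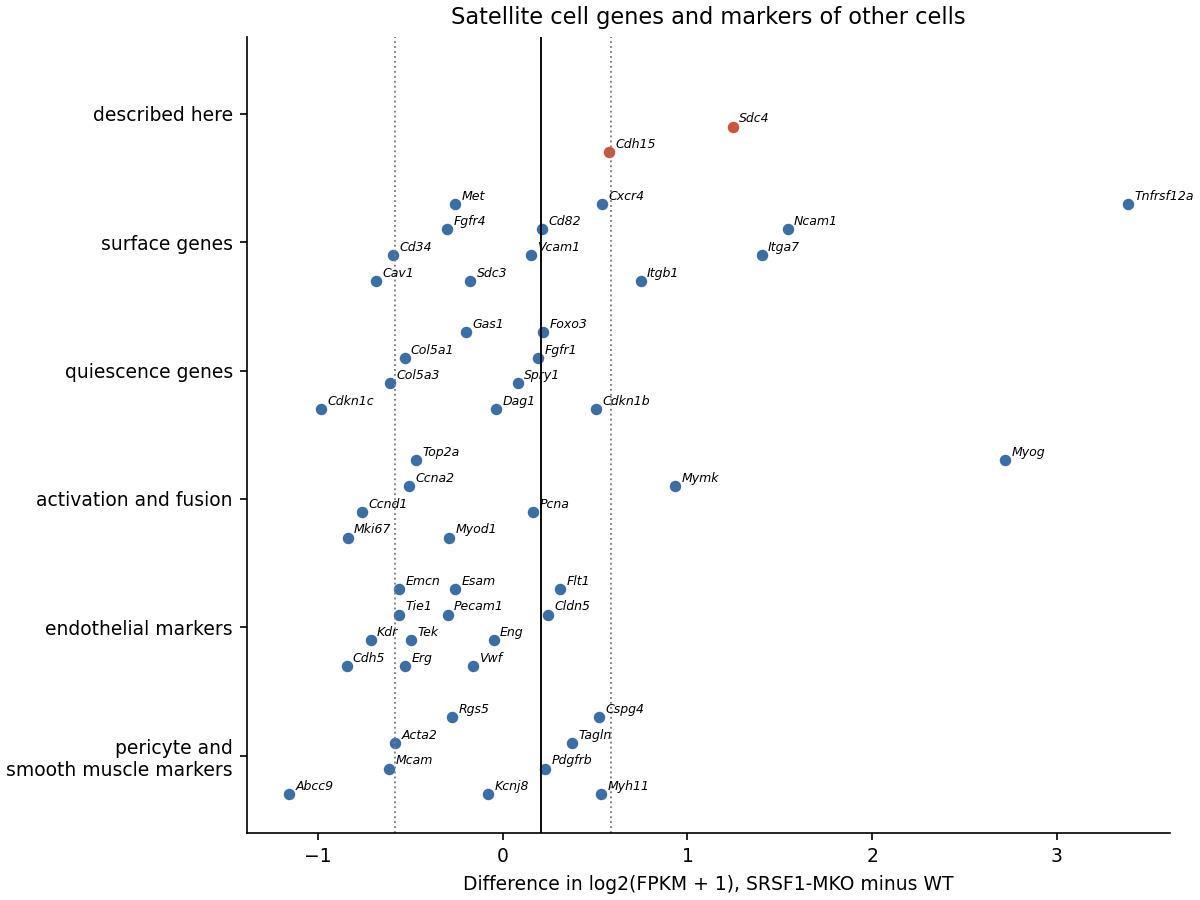
Difference in log2(FPKM + 1), SRSF1-MKO minus WT, for genes whose mean FPKM was at least 1: the described adhesion genes (red), other satellite cell genes by role, and markers of endothelium and of pericytes with smooth muscle (blue). The solid line is the median of all rows, 0.21, and the dotted lines are 1.5-fold; Tnfrsf12a and Myog lie furthest to the right, and most endothelial markers lie left of the solid line.

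The 2 described Notch receptors differed from each other. Notch1, a receptor of satellite cells and endothelium (chromosome 2, 26457903 to 26516663, minus strand), was at 1.04 FPKM in WT against 1.06 in SRSF1-MKO. Its 228 and 215 reads gave a ratio of 1.02 (0.845 to 1.24). Notch3, which is strongest in pericytes and vascular smooth muscle and is also made by satellite cells (chromosome 17, 32120820 to 32166852, minus strand), was at 2.32 and 1.47 FPKM. It was 1.58-fold lower (1.34 to 1.85), from 427 and 250 reads, and on the log2(FPKM + 1) scale the difference of -0.43 did not reach the 1.5-fold limit. The quotient of Notch3 to Notch1 was 2.24 in WT and 1.39 in SRSF1-MKO, a change of 0.621 (0.483 to 0.798). Of the other receptors, Notch2 was at 0.888 and 1.16 FPKM, and Notch4, an endothelial receptor whose row lies on an alternate scaffold, at 1.78 and 1.44 FPKM.

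Markers of other cell types were read beside the same background, 23.7% of rows higher and 8.13% lower. At any size, 34.1% of rows had the lower FPKM in SRSF1-MKO. The 12 endothelial markers summed to 95.1 FPKM in WT against 69.8 in SRSF1-MKO; 2 were lower (Cdh5 and Kdr), 0 higher, none was at 0, and the median difference was -0.40. Pecam1 was the most abundant of them, at 26.5 and 21.4 FPKM. The 10 pericyte and smooth muscle markers summed to 132 and 101 FPKM; of 9 measured, 2 were lower (Abcc9 and Mcam) and 0 higher, and none was at 0. Acta2, smooth muscle actin, was the most abundant at 42.1 and 27.8 FPKM, and Abcc9 was at 30.1 and 12.98 FPKM. The fall in the sum came from these 2 genes, and the rest of the list together did not fall. Kcnj8, also on the list, was at 3.47 and 3.24 FPKM. Of the 9 measured, 4 had the higher FPKM in SRSF1-MKO: Pdgfrb (5.74 and 6.91), Cspg4 (0.971 and 1.83), Myh11 (8.34 and 12.5) and Tagln (7.46 and 9.98). The median difference of the 9 was -0.08, so the mural markers did not share 1 direction. The part of endothelial and mural cells in the level of Notch3, Notch4 or Heyl was not tested, nor was the part of fibres in the level of Abcc9. Macrophage markers summed to 45.2 and 104 FPKM with 4 of 8 measured higher (Cd68, C1qa, C1qb and Lyz2), of which 2 were still higher with the median set to 0. Lyz2 was the most abundant of them, at 18.1 and 56.3 FPKM. Fibro-adipogenic markers summed to 826 and 593 FPKM, led by the collagen gene Col1a1 at 276 and 121 FPKM, with 2 of 10 lower (Col1a1 and Col1a2) and 0 higher. Of these 10, 5 had the higher FPKM in SRSF1-MKO, among them Pdgfra (3.64 and 5.34), Pi16 (6.70 and 9.49), Dcn (108 and 128) and Lum (15.4 and 19.2), and the median difference was 0.06. Fibre markers summed to 108351 and 55004 FPKM, with 5 of 10 lower (Ckm, Tnnt3, Myh4, Casq1 and Pvalb), and the most abundant was Myh4 at 28777 and 7176 FPKM. That list holds no gene particular to slow fibres, so its sum does not stand for fibre RNA as a whole. Fibre genes outside it went both ways: Mb was at 242 and 2135 FPKM, Mybpc1 at 241 and 492, and Mybpc2 at 1419 and 101. With the median set to 0, 7 of 12 endothelial and 4 of 9 mural markers were lower. On that scale 3 of 10 fibro-adipogenic and 9 of 10 fibre markers were lower, and none of these lists had a higher gene. The background there was 18.1% lower and 11.4% higher. Hes1 and Sdc4 are made by many of these cell types, and the part of macrophages in their levels was not tested.

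Among the Notch target genes, Hes1 stood apart from Hey1 and Heyl. Hes1 encodes a basic helix-loop-helix repressor that Notch and also other signals induce (chromosome 16, 30064384 to 30067796, plus strand). It was at 4.35 FPKM in WT against 15.7 in SRSF1-MKO, from 146 and 485 reads. That is 3.60-fold higher (2.99 to 4.36), a difference of 1.64 on the log2(FPKM + 1) scale and of 1.32 once the median over rows whose mean FPKM was at least 5 was set to 0. Hey1, a related repressor known as a Notch target in satellite cells and endothelium (chromosome 3, 8663359 to 8667256, minus strand), was at 1.23 and 1.55 FPKM. Its 63 and 73 reads gave a ratio of 1.26 (0.884 to 1.79). Heyl, which is made by satellite cells and by mural cells (chromosome 4, 123233556 to 123249875, plus strand), was at 1.40 and 1.10 FPKM, a ratio of 0.782 (0.603 to 1.01) from 147 and 106 reads. On the deposited scale a difference was therefore not detectable at this depth for Hey1 or Heyl. For Heyl that reading depends on the scaling between libraries. With the median set to 0, the log2(FPKM + 1) differences were -0.13 for Hey1 and -0.52 for Heyl, beside a median of -0.12 over all rows compared.

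The proportions of these target genes to each other also differed between the libraries. Hes1 was 3.52 times as abundant per kilobase as Hey1 in WT and 10.1 times in SRSF1-MKO, a change of 2.87 (1.91 to 4.28). Against Heyl the quotients were 3.10 and 14.3, a change of 4.61 (3.33 to 6.36). Hey1 against Heyl went from 0.881 to 1.42, a change of 1.61 with a lower bound of 1.03. Notch3 against Heyl, a pair of genes shared by mural cells, went from 1.66 to 1.35, and the interval of that change (0.599 to 1.10) included 1. The 3 described target genes thus did not move by 1 common factor.

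Other target genes were few at measurable levels. Hes6, which in mouse promotes rather than restrains myogenic differentiation, was at 1.27 FPKM in WT against 2.45 in SRSF1-MKO, 1.94-fold higher (1.40 to 2.70). Nrarp, a feedback inhibitor that Notch induces, was at 1.87 and 1.11 FPKM, a ratio of 0.591 (0.425 to 0.814), which is within 1.5-fold on the log2(FPKM + 1) scale. Hes5 was listed at 0 in both libraries, and Hey2, Hes7 and Dtx1 were under the filter. The 5 target genes whose mean FPKM was at least 1 were Hes1, Hey1, Heyl, Hes6 and Nrarp. Of these, only Hes1 and Hes6 passed the limit, both on the higher side, beside 23.7% of all rows higher and 8.13% lower. After the median was set to 0, Hes6 no longer passed it, and Nrarp passed it on the lower side at -0.77.

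The rest of the pathway lay close to the bulk of genes. Of 48 other Notch pathway genes, 35 reached a mean of 1 FPKM; 6 were higher, 0 lower and 29 within 1.5-fold, and the median difference was 0.15 beside 0.21 over all rows. A share of 17.1% was higher, beside 23.7% of all rows, and 0 lower beside 8.13%. With the median set to 0 the calls turned to 1 higher and 4 lower (background 11.4% and 18.1%), with a median of -0.17 beside -0.12 over all rows.

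Of 5 measured ligands, 4 had the lower FPKM in SRSF1-MKO, as did 34.1% of all rows compared. At 1.5-fold, 1 was higher (20.0%, background 23.7%) and 0 were lower (background 8.13%). Dll4, the ligand of endothelium, was at 1.53 FPKM in WT against 0.787 in SRSF1-MKO, a ratio of 0.515 (0.370 to 0.710), within 1.5-fold on the log2(FPKM + 1) scale. Jag2, the most abundant of the ligands, was at 3.40 and 2.82 FPKM, Jag1 at 1.68 and 1.44 FPKM, and Dll1 at 1.63 and 1.41 FPKM. Dlk1, an imprinted gene whose product resembles the ligands but lacks the domain with which they bind Notch, was the 1 higher at 1.23 and 2.84 FPKM, with its row on an alternate scaffold. The 4 measured canonical ligands thus lay below the median of all rows.

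Genes that process ligand and receptor were within 1.5-fold for 12 of 13 measured. The other was higher (7.69%, background 23.7%), and 0 were lower (background 8.13%). The exception was Psenen, the smallest subunit of gamma-secretase, at 16.3 and 25.2 FPKM, and its difference of 0.60 was just past the limit of 0.585. The sheddases that make the first cut, Adam10 (5.06 and 4.30 FPKM) and Adam17 (6.43 and 6.85 FPKM), were within it.

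In the nucleus, Rbpj, the DNA-binding partner of Notch, was at 3.19 FPKM in WT against 5.29 in SRSF1-MKO, and its difference of 0.59 lay on the limit. Rbpj reads did not come out whole in the deposited values, so the reads behind it are approximate (405 and 619). Kdm5a, a histone demethylase known to repress Notch targets with RBPJ, was at 3.08 and 8.36 FPKM, 2.72-fold higher (2.50 to 2.96); its row lies on an alternate scaffold and may hold part of the reads. Snw1, an RBPJ-binding protein that also belongs to the spliceosome, was the most abundant within the limits, at 40.6 and 56.7 FPKM. All 5 measured nuclear genes had the higher FPKM in SRSF1-MKO, while 34.1% of all rows compared had the lower FPKM. At 1.5-fold, 2 of the 5 were higher (40.0%, background 23.7%). After the median was set to 0 only Kdm5a passed the limit (background 11.4%).

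Among 8 measured inhibitors and turnover genes, 1 was higher (12.5%, background 23.7%) and 0 were lower (background 8.13%). The higher gene was Numbl, at 0.946 and 2.20 FPKM (2.33-fold, 1.96 to 2.78). Its relative Numb, which marks Notch for removal, was at 3.90 and 3.12 FPKM. Fbxw7, the ligase subunit that ends the life of the Notch intracellular part, was at 7.64 and 5.87 FPKM, and Egfl7, a secreted endothelial protein, was the most abundant at 14.7 and 13.4 FPKM. The Numb genes therefore had differences of opposite sign, 0.72 for Numbl and -0.25 for Numb.

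**Figure D5:**
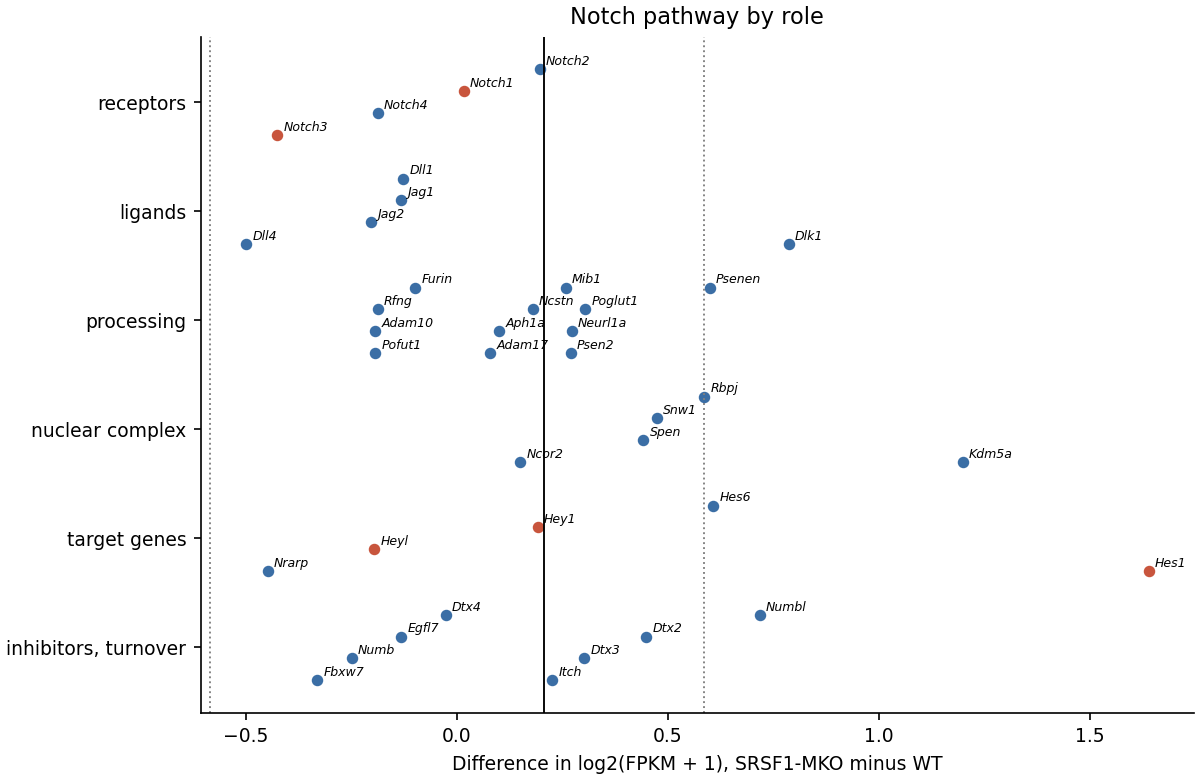
Difference in log2(FPKM + 1), SRSF1-MKO minus WT, for Notch pathway genes whose mean FPKM was at least 1, by role (1 gene is not shown); described genes are red and other pathway genes blue, the solid line is the median of all rows, 0.21, and the dotted lines are 1.5-fold. Hes1 lies furthest to the right, Kdm5a next, and no gene passes the lower dotted line.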

How the data were processed

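RNA was sequenced from 1 WT and 1 SRSF1-MKO library. The authors deposited 1 table of FPKM values with 1 column per genotype; the unit is taken from the table's name and values. Bowtie and the build mm10 are named per the submitters' processing notes; versions, annotation, counting and strand: not given in the sources used here. In the table, 1 line had been emptied and is not analysed here.

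Whole reads were recovered: 92.8% of the 19044 rows above 0 in both libraries had a ratio that was a fraction of whole numbers (up to 3000, tolerance 1e-12) times 1 constant, against 0.294% with that constant off by 1 part in 10000. With length taken as span, 12725 rows each implied a total, and the commonest of these, given by 613 rows, was used for the library totals. Reads of a gene are the multiple whose length is nearest to its longest GENCODE M21 transcript (GRCm38, the assembly of mm10), approximate where none came out whole. The recovery of the constant and of the read ratios was tested on simulated data. The choice of the multiple and the library totals were not tested in that way. Ratios have exact binomial (Clopper-Pearson) 95% intervals and quotients exact conditional odds ratio intervals (scipy 1.17.1), which cover counting error only, as reads are not independent molecules.

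Differences are log2((SRSF1-MKO FPKM + 1)/(WT FPKM + 1)), which understates changes of low genes. The genes and lists were chosen with earlier results of these data known. Named are all 10 genes, Srsf1, list genes past 1.5-fold, the most abundant of a role within it, and genes where a count was 5 or fewer; the other genes given with values, sex-linked ones included, were added after their values were seen. Some list genes and 1 marker list are not reported here; list counts include them.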

Additional observations from a re-analysis of the deposited data

How the results depend on the processing

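Hes1 and Sdc4 were the higher genes of the set under each scaling, fold and filter tried. The count of higher genes in the set was 2 or 3 under every alternative, the third being Cdh15 with a pseudocount of 0.1 or 0.5 FPKM and with column sums that left out mitochondrial and ribosomal RNA rows. The count of lower genes, 0 as reported, was 1 (Notch3) with a pseudocount of 0.1 FPKM, per 1000000 of the summed FPKM, and with the median set to 0; with that median, 3 of the 10 genes in place of 5 had a difference above 0. Of 50 recomputed differences of single genes, 43 shifted by less than the reach of the gene's counting interval to either side of its middle on the log2 scale. The other 7 shifted by more, and 0 changed the sign of a called gene. A small shift in this sense does not mean that the value lay inside the interval.

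In the other Notch pathway genes, the 6 higher became 2 at a mean FPKM of at least 5, 1 at a fold of 2, 3 per 1000000 of the summed FPKM and 1 with the median set to 0. The 0 lower became 2, 1, 4, 4 and 2 with a pseudocount of 0.1, with 0.5, per 1000000 of the summed FPKM, with the median set to 0 and without mitochondrial and ribosomal RNA rows. Their median of 0.15 became -0.14 per 1000000 of the summed FPKM and -0.17 with the median set to 0, as those scalings lower SRSF1-MKO relative to WT for every gene. Over all rows compared the medians under these scalings were -0.045 and -0.12, as the 0 was set on rows whose mean FPKM was at least 5. For the other satellite cell genes, the 6 lower became 0 at a fold of 2 and 11 under each of those 2 scalings, and the median of -0.03 became 0.066 at a mean FPKM of at least 5, -0.34 and -0.36. No paired analysis was possible because each group has 1 library, and for the same reason no replicate could be left out. Depth limits Calcr, with 2 reads in SRSF1-MKO, most.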
